A study of Mus musculus with 11 samples.

Results

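Dcr KO line 1, a line of mouse embryonic stem cells (ESCs) that lack Dicer, was compared with Dcr KO lines 3 and 4, which are labelled Dcr knockout too, to ask which RNAs set line 1 apart from the others. The features compared were those of the Dcr expression table with a source annotation (coding, noncoding, pseudogene or repeat) and a mean normalised read count of at least 100 over the 3 lines. There were 16013 such features, of 30395 annotated features and 48942 features in all. The lowest mean inside the minimum was 100.03 and the highest outside it 99.97. All RNA came from strain 129S4/SvJae ESCs kept on gelatin without feeder cells, and was poly(A)-selected before strand-marked paired-end libraries were made. The groups were Dcr KO line 1 (1 library), Dcr KO lines 3 and 4 (1 library each) and Dcr WT (2 libraries, shown as the reference of both), among 11 samples of a series that also holds cMyc and chromatin libraries, not analysed here. Each line is 1 line and 1 library, so a difference between lines cannot be told apart from one between cultures or libraries. No label says which part of Dicer is deleted, how the lines are related, or whether the Dcr WT replicates are separate cultures. Values are normalised read counts, namely reads divided by 1 factor per library. Line 1 had 247574902 recovered reads, lines 3 and 4 had 278006158 and 251808298, and the Dcr WT libraries had 101815723 and 206721717.

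The features that differed most lay mainly in 1 imprinted region, the Dlk1-Dio3 locus of chromosome 12. Imprinted genes are read from only 1 parental copy. In this locus the maternal copy gives a chain of noncoding RNAs: Meg3 (also called Gtl2), Rian, which hosts small nucleolar RNAs and microRNAs, and Mirg, which hosts a large microRNA cluster. The paternal copy gives the protein-coding genes Dlk1, a Notch-related surface protein, Rtl1, a retrotransposon-derived gene of the placenta, and Dio3, an enzyme that inactivates thyroid hormone. A methylated region between Dlk1 and Meg3 sets which copy is used, and mouse pluripotent lines are known to differ in whether the maternal RNAs are on. Dicer is the enzyme that releases mature microRNAs from their hairpins, and cells without it lack most mature microRNAs.

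Of the 16013 features, 12 passed the test as lower in line 1 than in lines 3 and 4 (limma across 42358 features, Benjamini-Hochberg adjusted p under 0.05), which is 0.0749% of them, and 0 passed as higher (0%). Over all tested features the share called lower was 0.0354%. At an unadjusted p under 0.05 there were 141 higher (0.881%) and 84 lower (0.525%). By fold, 16 features were more than 4-fold below both lines 3 and 4 in line 1 (0.0999%, against 1.41% of all 48942 features), and the same 16 were more than 8-fold below both. None was more than 4-fold above both (0%, against 0.558% of all features). The 16 were Meg3, Rian, Mirg, 9 microRNA features and 4 further noncoding transcripts, and RefSeq placed 12 of them on chromosome 12 and did not place the other 4. The minimum on the mean is easier to meet for a feature low in 1 line than for one high in 1 line, and 14 of the 16 were under 100 in line 1 itself. The limma test borrows its spread from the lines 3 and 4 pair and the Dcr WT pair and assumes that line 1 varies like them. Its 12 calls fell to 0 without any 1 of those 4 libraries or with the 3 Dcr KO libraries alone. On recovered whole reads, edgeR called 14 of the 16 (0.0874% of the 16013) and DESeq2 all 16 with 2 others (0.112%), and edgeR called 15 or 16 of them without each of those libraries in turn. Those edgeR fits also called 3 and 9 features outside the 16 without line 3 and line 4, and 45 and 38 without Dcr WT replicates 1 and 2, of which 3, 9, 32 and 25 were higher in line 1.

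**Figure D1:**
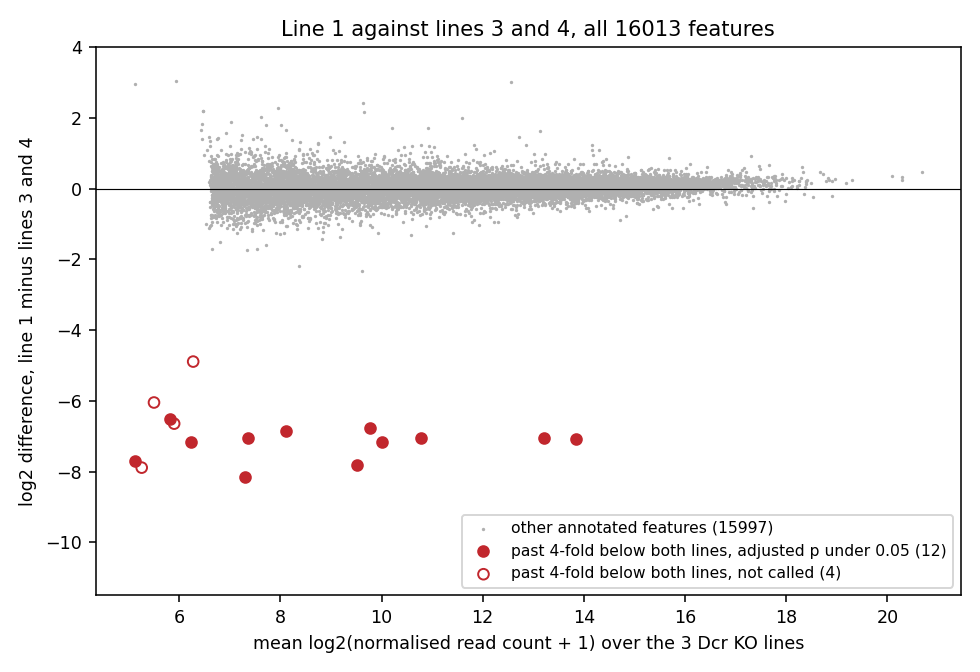
Difference between Dcr KO line 1 and lines 3 and 4 for all 16013 features, as log2 of the normalised read count + 1 (vertical axis), against the mean level over the 3 lines on the same scale (horizontal axis). Filled red points are the 12 features called lower by limma, open red points the 4 others more than 4-fold below both lines, and grey points all remaining features, which lie between -2.34 and 3.05.

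The first sequences shown are the mature forms of the 9 microRNA features among the 16, since these are the products that the region is best known for. They are from RefSeq (GRCm38.p6), all 9 matched by symbol, all lie on the plus strand of chromosome 12, and the 5′ arm is printed where the table holds both arms. Capitals mark the seed, bases 2 to 8, by which a microRNA pairs with its targets.
mmu-miR-1906: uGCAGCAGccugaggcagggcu
mmu-miR-673-5p: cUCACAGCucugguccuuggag
mmu-miR-433-5p: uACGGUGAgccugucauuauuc
mmu-miR-136-5p: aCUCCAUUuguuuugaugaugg
mmu-miR-379-5p: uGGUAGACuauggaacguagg
mmu-miR-1193-5p: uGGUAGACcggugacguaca
mmu-miR-300-5p: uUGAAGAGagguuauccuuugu
mmu-miR-487b-5p: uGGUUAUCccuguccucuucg
mmu-miR-453: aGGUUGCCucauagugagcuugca
Mir379 and Mir1193 share 1 seed, GGUAGAC, which no other entry among the 1738 mature mouse microRNAs of the table holds. The other 7 printed forms have a seed each of their own within this set. The libraries held poly(A)-selected RNA, so a count on such a feature is not a measure of the mature microRNA printed here.

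The first of the 2 RefSeq promoter windows of Meg3 is shown because its RNA leads the group, and methylation of CG pairs at this locus is known to set which copy is used. It runs from 250 bases before to 50 bases after that start, at chr12:109540746-109541045 on the plus strand (GRCm38.p6), with CG in capitals.
Meg3 promoter: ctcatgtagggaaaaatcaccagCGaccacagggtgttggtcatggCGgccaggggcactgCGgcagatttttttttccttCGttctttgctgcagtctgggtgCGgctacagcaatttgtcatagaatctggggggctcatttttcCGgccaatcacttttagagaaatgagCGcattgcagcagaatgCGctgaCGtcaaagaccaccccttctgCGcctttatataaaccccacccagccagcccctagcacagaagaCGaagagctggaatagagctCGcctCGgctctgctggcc
It holds 13 CG pairs, and 37.9% of the 32851 promoter windows of this length hold at least as many. The other Meg3 window, at chr12:109545148-109545447, holds 1 CG pair. Over the same window length, Mirg had 10 CG pairs, Rian 0, Dlk1 9 and Dio3 25, against a median of 7 over all windows. The letters TGCCGC, the core that the imprint-keeping factor ZFP57 reads, occurred 1 time over both strands of the first Meg3 window and 0 times in the other Meg3 window and in those of Rian, Mirg, Dlk1 and Dio3, while 11.6% of all windows hold them. No methylation was measured in these files.

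The long host RNAs of the maternal copy come first. Meg3, a long noncoding RNA and the first gene of the maternal chain, had a normalised read count of 555 in line 1, against 63852 and 89316 in lines 3 and 4 and 38979.5 and 32396 in the Dcr WT libraries. Line 1 thus held 0.724% of the mean of lines 3 and 4, from 625 reads (95% exact Poisson interval of line 1's reads alone, 0.668 to 0.783%). The log2 difference was -7.09 ± 0.26 (SE; limma adjusted p = 0.00246), and the line 1 value lay below all 4 other libraries.

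Rian, downstream of Meg3 and host of small nucleolar RNAs, had 363 in line 1, against 40964 and 57066 in lines 3 and 4 and 26356 and 29036 in Dcr WT. This was 0.740% of lines 3 and 4, from 409 reads (0.67 to 0.816%), with a log2 difference of -7.05 ± 0.25 (SE; limma adjusted p = 0.00246). Mirg, the last host of the chain, had 5.32 in line 1, against 749 and 926 in lines 3 and 4 and 326 and 347 in Dcr WT. Its log2 difference was -7.04 ± 0.33 (SE; limma adjusted p = 0.00418), resting on 6 reads in line 1. In all 3 RNAs lines 3 and 4 both stood above both Dcr WT libraries, and line 1 below both.

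Among the 9 microRNA features, 7 passed the limma test. Mir1906-1, which lies within Meg3 in the annotation, had 36.4 in line 1, against 4165 and 6903 in lines 3 and 4 and 2718 and 3014 in Dcr WT. Mir673 had 10.7 in line 1, against 1062 and 1691 in lines 3 and 4 and 431 and 518 in Dcr WT. Mir433, on the strand opposite Rtl1 in the same stretch, had 2.66 in line 1, from 3 reads, against 859 and 1263 in lines 3 and 4 and 451 and 405 in Dcr WT. In these 3 features, line 1 lay below every other library. Mir136 had 37.3 in line 1, against 3468 and 4935 in lines 3 and 4 and 1511 and 1753 in Dcr WT. Mir1193, one of the pair with a shared seed, had 18.6 in line 1, against 3403 and 5755 in lines 3 and 4 and 1646 and 2656 in Dcr WT. Mir487b had 1.77 in line 1, from 2 reads, against 319 and 489 in lines 3 and 4 and 107 and 146 in Dcr WT. Here too the line 1 library stood alone, and line 4 was the highest. Mir453, which lies within Mirg in the annotation, had 66.5 in line 1, against 8173 and 9651 in lines 3 and 4 and 4275 and 3297 in Dcr WT. The log2 differences of these 7 ran from -8.15 (Mir433, SE 0.37) to -6.76 (Mir136, SE 0.29), with limma adjusted p from 0.00246 (Mir453) to 0.0236 (Mir487b).

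The other 2 microRNA features were more than 4-fold below both lines without passing the limma test. Mir379, the other holder of the shared seed, had 0 in line 1, against 147 and 377 in lines 3 and 4 and 94.6 and 188 in Dcr WT (limma adjusted p = 0.101). Set against a floor of 3 reads in the line 1 library, it was at least 98.6-fold lower than the mean of lines 3 and 4. Mir300 had 7.10 in line 1, from 8 reads, against 189 and 302 in lines 3 and 4 and 42.3 and 142 in Dcr WT (limma adjusted p = 1.0), 2.89% of lines 3 and 4 with an interval of 1.25 to 5.7%. Its log2 difference of -4.89 was the smallest of the 9. For both, line 1 was again the lowest of the 5 libraries, with no overlap. DESeq2 on whole reads called Mir379 (adjusted p = 0.000881) and Mir300 (adjusted p = 3.79e-06), and edgeR called neither (adjusted p = 0.101 and 0.584).

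The 4 transcripts that RefSeq did not place are named only by their identifiers. B830012L14Rik had 1.77 in line 1, against 196 and 331 in lines 3 and 4 and 145 and 201 in Dcr WT (limma adjusted p = 0.0485). AK142849 had 0 in line 1, against 144 and 295 in lines 3 and 4 and 121 and 94.9 in Dcr WT (limma adjusted p = 0.0485), at least 82.5-fold lower by the same floor. AK163826 and uc007pbd.2, which missed the threshold (limma adjusted p = 0.0780 each), both had 1.77 in line 1, from 2 reads. AK163826 had 148 and 224 in lines 3 and 4 and 70.4 and 59.3 in Dcr WT. For uc007pbd.2 the values were 238 and 321 in lines 3 and 4 and 44.3 and 87.6 in Dcr WT. The sources used here give neither how reads over overlapping features were assigned nor whether strand was used, and features within Meg3 and Mirg may share reads. Because Mir1906-1 lies within Meg3 and Mir453 within Mirg, and 12 of the 16 are neighbours in 1 locus, the 16 are not 16 independent observations.

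**Figure D2:**
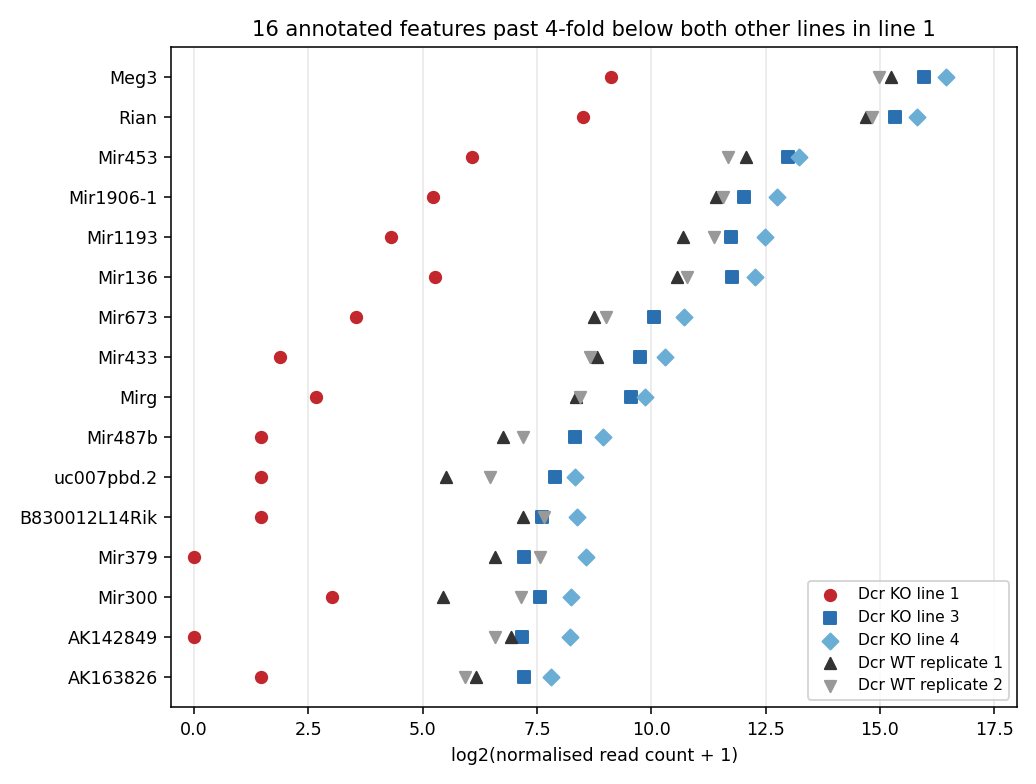
Level of each of the 16 features in every library, as log2 of the normalised read count + 1, with Dcr KO line 1 in red, lines 3 and 4 in blue and the Dcr WT libraries in grey. In every row line 1 is the lowest point, and line 4 lies to the right of line 3.

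In the 7 features with at least 10 reads in line 1, line 1 held 0.407 to 0.887% of the mean of lines 3 and 4, with a median of 0.740%. Mir300, with 8 reads, stood higher, at 2.89%. The counting intervals of Mir1193 (0.252 to 0.622%) and Mir136 (0.639 to 1.2%) did not overlap. These intervals cover line 1's reads alone and not the spread between lines 3 and 4. Whether the proportion differs between features was not tested. Summed over the 16, there were 1250 reads in line 1, against 167679 and 235017 in lines 3 and 4 and 38432 and 81436 in Dcr WT. Scaled to 1000000 reads of each library this was 5.05 in line 1, 603 and 933 in lines 3 and 4, and 377 and 394 in Dcr WT. Line 4 was above line 3 in 16 of 16 features, so the 2 lines with high levels also differed from each other. Lines 3 and 4 averaged 1.52 to 4.24 times the Dcr WT mean and both lines were above both Dcr WT libraries in 14 of the 16. Line 1 was below both Dcr WT libraries in 16 of 16. These counts are a description only, since the 16 were picked for being low in line 1 beside lines 3 and 4, and both comparisons share the Dcr WT libraries.

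Along the chromosome the low stretch had sharp ends among the features that RefSeq placed. In RefSeq order from Yy1 to Hsp90aa1 the table held 28 features, and the 14 from Meg3 to Mir453 included 13 that were more than 4-fold below both other lines in line 1. The exception was Rtl1, a paternal gene, at 3.55 in line 1, against 5.35 and 0 in lines 3 and 4 and 12.1 and 11.9 in Dcr WT, near the floor in every library. Mir299a, among the 13, was under the level minimum, at 0 in line 1, against 84.8 and 159 in lines 3 and 4 and 18.1 and 43.8 in Dcr WT. None of the features on either side in that order passed the limma test between line 1 and lines 3 and 4. A noncoding feature under the level minimum, lncRNAlocus947, which its name puts on chromosome 12, was not in that order. It had 11.5 in line 1, against 101 and 127 in lines 3 and 4 and 103 and 49.3 in Dcr WT. Whether it lies inside or outside the stretch was not tested.

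Dlk1, the paternal gene just upstream of Meg3, had 310 in line 1, against 736 and 856 in lines 3 and 4 and 2871 and 1767 in Dcr WT. The 3 groups did not overlap, with line 1 the lowest. Its log2 difference from lines 3 and 4 was -1.36 ± 0.34 (SE; 95% interval -2.19 to -0.52), with a limma adjusted p of 1.0 (unadjusted 0.00747). Against Dcr WT limma called Dlk1 lower both in line 1 (log2 difference -2.86, adjusted p = 0.0163, with 5.03% of the 16013 features called lower in that comparison) and in lines 3 and 4 (-1.50, adjusted p = 0.0196, with 15.7% called lower). Dio3, the paternal gene at the far end, had 1789.6 in line 1, against 2018 and 879 in lines 3 and 4 and 2509 and 1221 in Dcr WT. Line 1 lay between the others, and the interval of the log2 difference, -1.04 to 1.89, was wide. Dio3os, antisense to Dio3, had 121 in line 1, against a mean of 99.0 ± 44.7 in lines 3 and 4 and 118 ± 35.2 in Dcr WT (SD, n = 2 each). Further upstream, the log2 differences were 0.30 ± 0.29 for Begain, 0.25 ± 0.22 for Wdr25 and 0.39 ± 0.22 for Wars (SE; limma adjusted p = 1.0 for each). Of the 9 features of the fixed Dlk1-Dio3 list at the level minimum, limma called 3 lower (Meg3, Rian and Mirg) and 0 higher.

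**Figure D3:**
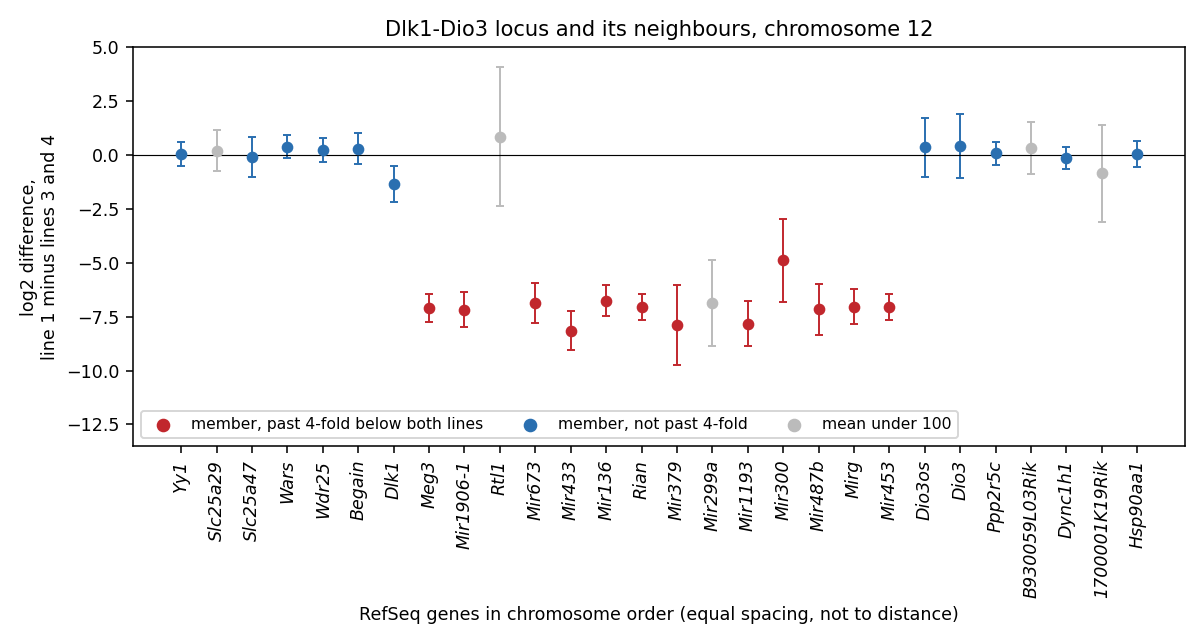
Log2 difference, line 1 minus lines 3 and 4, for the 28 features from Yy1 to Hsp90aa1 in chromosome order at equal spacing, with 95% intervals from limma. The features from Meg3 to Mir453 lie between -8.15 and -4.89 except Rtl1, and those outside lie between -0.84 and 0.43 except Dlk1 at -1.36.

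Dicer1, the gene targeted, did not differ beyond its error between the lines. It had 8553 in line 1, against 9793 and 7743 in lines 3 and 4 and 20132 and 18792 in Dcr WT, a log2 difference between the lines of -0.03 (95% interval -0.55 to 0.50). Myc, a transcription factor of growth, had 1253 in line 1, against 1054 and 443 in lines 3 and 4 and 10984 and 7478 in Dcr WT. Pou5f1, Sox2 and Nanog, the core pluripotency factors and markers of the labelled cell type, had reads in every library. Pou5f1 was at 284597 in line 1, against 242545 and 216556 in lines 3 and 4 and 214178 and 220556 in Dcr WT. In line 1, Sox2 was at 94399 and Nanog at 171597. Between the lines, Pou5f1, Sox2 and Nanog differed by 0.31 ± 0.19, -0.04 ± 0.18 and 0.10 ± 0.31 on the log2 scale (SE; limma adjusted p = 1.0 for each). Myc lay above both other lines in line 1, and Dicer1 between them.

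Other imprinted loci did not pass the test. Of 16 features of the list for genes read from the maternal copy and 25 of the paternal list, limma called 0 in either direction. The medians were 0.15 and 0.08 on the log2 scale beside 0.07 over all 16013 features, which became -0.04 when libraries were scaled to total reads. The 16 include Nckap1 and the 25 include Aggf1, which are not known as imprinted genes, so these counts and medians are not of imprinted genes alone. Neither H19 nor Peg3 was among the features examined. Grb10, a maternally expressed growth inhibitor, had 79217 in line 1, against 53576 and 34452 in lines 3 and 4 and 140671 and 88852 in Dcr WT. Cdkn1c, a maternally expressed inhibitor of the cell cycle, had 2200.4 in line 1, against 1508 and 1001 in lines 3 and 4 and 5991 and 5632 in Dcr WT. In both, line 1 lay between the other lines and Dcr WT without overlap. Igf2r, a maternally expressed receptor that clears IGF2, differed by -0.19 ± 0.19 (SE). A pair of paternally expressed genes departed in another line: Nnat, a small membrane protein, was at 2216 in line 1, 141 in line 3, 1683 in line 4, and 2460.4 and 4586 in Dcr WT. Peg13, a noncoding RNA, was at 715 in line 1, 501 in line 3, 41.3 in line 4, and 483 and 503 in Dcr WT. Zfp57, a factor that keeps imprints, had 58609 in line 1, against 55063 and 50297 in lines 3 and 4 and 60215 and 43496 in Dcr WT, and Trim28, its partner, differed by 0.24 on the log2 scale (95% interval -0.45 to 0.93).

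Over the 23 other lists, which hold 305 features at the level minimum, 0 were called in either direction by limma, by edgeR or by DESeq2. At an unadjusted limma p under 0.05, 10 of the 305 were higher and 0 lower, beside 0.881% higher and 0.525% lower over all 16013. The lists were chosen with earlier results of these data known, and this excess was not tested. The 2-cell-like list, genes of the early embryo that a few ESCs express, had the lowest median of lists with more than 2 members, -0.54, with 9 of its 10 features below both other lines. Its Zscan4c had 1954 in line 1, against 2339 and 3417 in lines 3 and 4 and 949.5 and 174 in Dcr WT. The metabolic and stress list had 18 of 24 above both lines and 1 below both, with a median of 0.29, beside 7609 of 16013 above both and 3879 below both overall. Mt1, a metal-binding protein, was at 247570.1 in line 1, against 148016 and 115545 in lines 3 and 4 and 72163 and 49952 in Dcr WT, a log2 difference of 0.92 ± 0.29 (SE; limma adjusted p = 1.0). Lin28a, an RNA-binding protein that blocks let-7 microRNAs, was at 13160.4 in line 1, against 8977 and 3437 in lines 3 and 4 and 78023 and 102819 in Dcr WT. For these 3 genes line 1 lay beyond both other lines, and none passed the test. For Lin28a and Zscan4c the gap to the nearer line was smaller than that between lines 3 and 4.

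The fixed markers of other cell types gave the same picture. Limma called 0 of 16 endoderm, 0 of 13 mesoderm and primitive streak, 0 of 12 neural, 0 of 10 trophoblast, 0 of 10 fibroblast and 0 of 18 germline features. Tagln, an actin-binding protein of fibroblasts and smooth muscle, was at 4277 in line 1, against 2243 and 762 in lines 3 and 4 and 18703 and 19886 in Dcr WT (log2 difference 1.71 ± 0.58, SE; limma adjusted p = 1.0). Krt7, a keratin of trophoblast, was at 2114 in line 1, against 1348 and 733 in lines 3 and 4 and 949.5 and 2381 in Dcr WT. A further 46 small RNA features at the level minimum, 33 of them microRNAs, lay outside the 16. All 12 limma calls were among the 16, so none could fall on these 46. Their log2 differences ran from -0.95 to 1.20 with a median of -0.06.

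**Figure D4:**
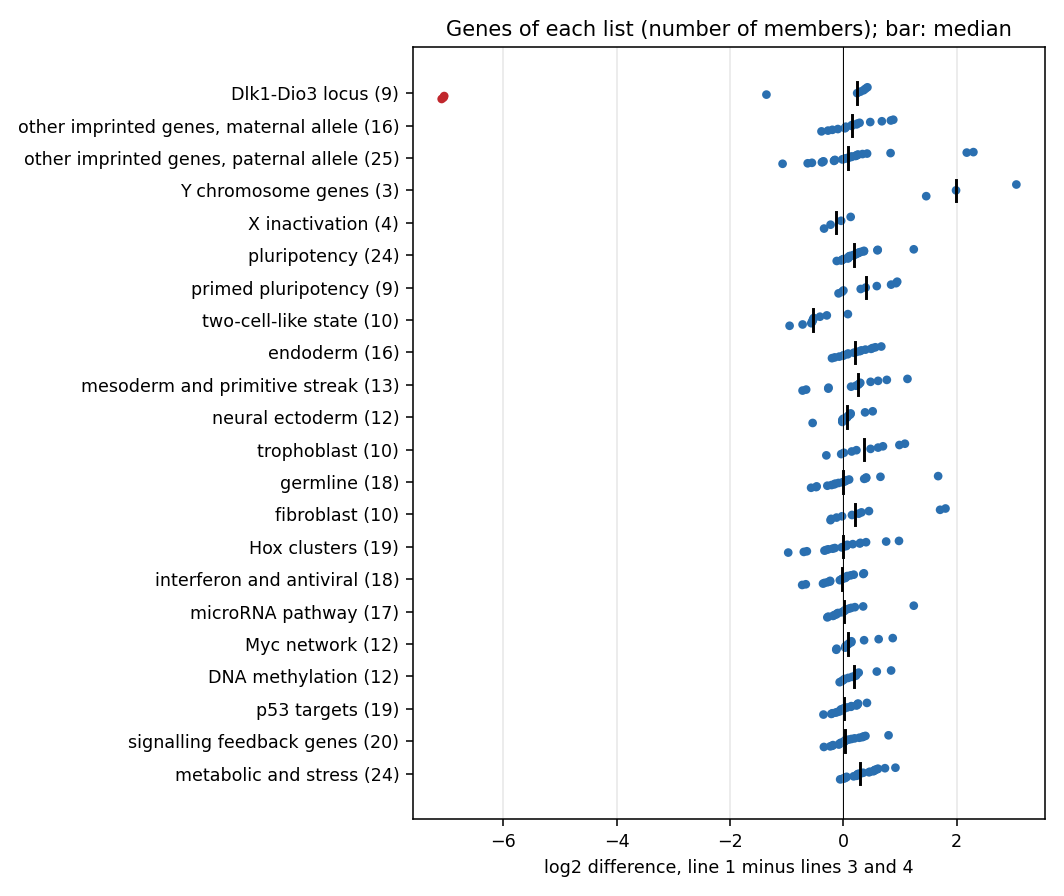
Log2 difference, line 1 minus lines 3 and 4, of each gene of the lists with at least 3 members, each point a gene and each bar the list's median. Meg3, Rian and Mirg (red) stand near -7 in the Dlk1-Dio3 list, and genes of the other lists lie between -1.07 and 3.05.

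Outside the 16, 23 features were more than 2-fold above and 21 more than 2-fold below both other lines in line 1, and limma and edgeR called none of them. DESeq2 called 2 lower. C330024D21Rik, a noncoding RNA, was at 71.0 in line 1, against 175 and 329.8 in lines 3 and 4 and 1563 and 1479 in Dcr WT (DESeq2 adjusted p = 0.0273). PGOMOU00000130353, a pseudogene, was at 119.8 in line 1, against 655 and 455 in lines 3 and 4 and 289.7 and 362 in Dcr WT (DESeq2 adjusted p = 0.000204). These and the genes that follow were chosen after their values were seen. Scand1, a SCAN-domain protein, was at 265 in line 1, against 1782 and 1017 in lines 3 and 4 and 1989.6 and 736 in Dcr WT, a log2 difference of -2.34 ± 0.63 (SE; limma adjusted p = 1.0). Zfp771, a zinc finger protein, was at 833 in line 1, against 2369 and 1806 in lines 3 and 4 and 2145 and 1572 in Dcr WT. For both genes line 1 lay below all 4 other libraries. Nefm, a neurofilament protein, was at 2621 in line 1, against 1178 and 543 in lines 3 and 4 and 1416 and 2634 in Dcr WT. Sp8, a transcription factor of limb and brain, was at 314 in line 1, against 124.5 and 55.9 in lines 3 and 4 and 163 and 187 in Dcr WT. Pou2f3, a transcription factor of tuft cells and skin, was at 188 in line 1, against 83.3 and 54.3 in lines 3 and 4 and 1076 and 1191 in Dcr WT. These 3 were above both other lines in line 1, with Sp8 also above both Dcr WT libraries and Pou2f3 far below them.

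By the number of features more than 2-fold apart in pairs, line 1 was not the most distant line. Between line 1 and line 3, 107 features differed more than 2-fold, between line 1 and line 4, 385, and between lines 3 and 4, 196. The median size of the log2 difference was 0.14, 0.21 and 0.17 for these pairs. More than 4-fold apart were 27, 33 and 18 features in the same order, so at 4-fold both pairs with line 1 had more than lines 3 and 4. By the 4-fold rule used above, line 3 had 0 features above and 9 below both other lines (0.0562%), and line 4 had 1 above and 6 below (0.0375%). Both lines had fewer than the 16 of line 1. The 9 of line 3 included 3 genes of the Y chromosome. Eif2s3y was at 7757 in line 1, 506 in line 3, 7525 in line 4, and 4221 and 6342 in Dcr WT, Uty and Kdm5d showed the same order of line 3 below the rest, and Mid1 of the X chromosome was at 24357 in line 1, 587 in line 3 and 15580 in line 4. The 16 of line 1, in contrast, were all noncoding, and 12 of them were from 1 chromosome.

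Chromosome 12 as a whole was not low. Over the 19 autosomes and the X, with 314 to 1095 features each, the median log2 difference of line 1 from lines 3 and 4 ran from 0.07 to 0.11, and chromosome 12 stood at 0.08 over 465 features. The Y chromosome, with 3 features, stood at 3.94 against line 3 and 0.04 against line 4. These medians are a description, with no test.

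**Figure D5:**
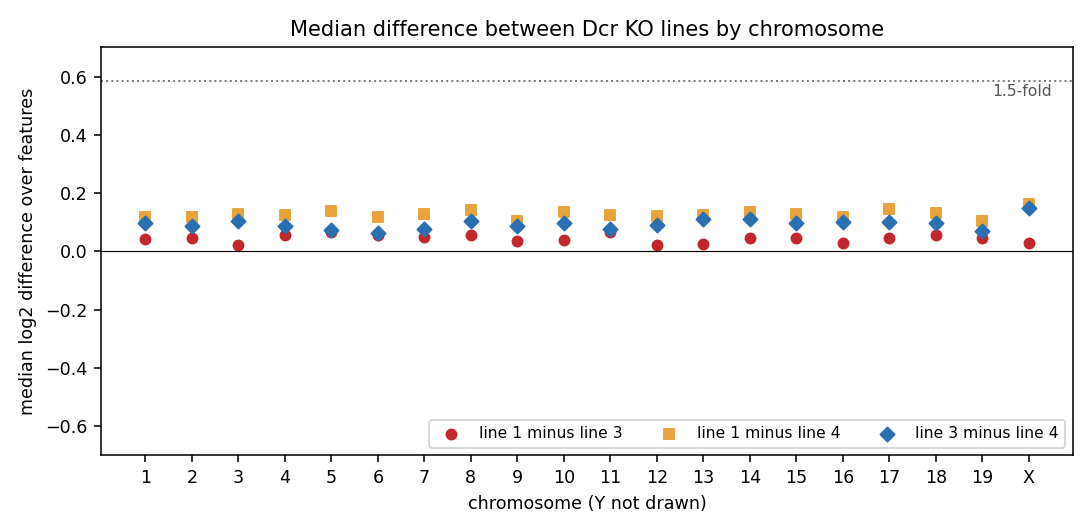
Median log2 difference over features by chromosome for line 1 minus line 3 (red), line 1 minus line 4 (orange) and line 3 minus line 4 (blue), with a dotted line at 1.5-fold. The Y chromosome is not drawn. The medians of the 19 autosomes and the X lie between 0.0206 and 0.161, with chromosome 12 within that range.

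Of the 18547 unannotated loci, 1818 had a mean of at least 100 over the 3 lines, and of these limma called 3 lower and 0 higher in line 1. The largest in level, XLOC_051295, had 234 in line 1, against 23622 and 34644 in lines 3 and 4 and 16128 and 10309 in Dcr WT (log2 difference -6.93 ± 0.35, SE; limma adjusted p = 0.00535). XLOC_010157 had 1.77 in line 1, from 2 reads, against 787 and 1269.5 in lines 3 and 4 and 447 and 513 in Dcr WT. Their positions are not paired with the names in the table, so whether they belong to the same locus was not tested.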

How the data were processed

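Poly(A)-selected RNA of 5 Dcr libraries was analysed. The authors deposited a normalised signal per feature; TopHat, Bowtie, DESeq and mm9 are named, with no role, in the submitters' processing notes. Dividing by the worth of 1 read gave whole reads (tolerance 0.01) for 100% of values in each library. The sources used here do not give the gene models or other steps. Symbols and gene order were taken from RefSeq (GRCm38.p6; 20183 of 20559 RefSeq identifiers matched). Line 1, lines 3 and 4, and Dcr WT were fitted as 3 means of log2(value + 1) in limma 3.58.1 under R 4.3.3, using its empirical Bayes step with a trend. The 42358 features tested reached 1 in 2 or more libraries. This leaves 2 residual degrees of freedom. Fold changes on this scale understate those of low features. Line 1 has no replicate, and its p-values reflect the spread among these libraries, which may be technical. Alternatives were edgeR 4.0.16, DESeq2 1.42.0, other scalings, pseudocounts, filters and left-out libraries. Intervals and floors (3 reads) cover counting error only. The features and 24 gene lists were chosen with earlier results of these data known. Genes named were the Dlk1-Dio3 list, Dicer1, Myc, up to 12 called coding and 5 called noncoding features each way (0 coding features were called), up to 4 called genes of each list, and features past 4-fold from both lines. Genes outside these were chosen after their values were seen. No Dcr column lacked a matching sample (0 unmatched).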

Additional observations from a re-analysis of the deposited data

How the results depend on the processing

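No paired analysis was possible because line 1 is 1 library and the groups compared share fewer than 2 replicate numbers. The 12 features that limma called lower became 6 with no filter on low values and 0 with the 3 Dcr KO libraries alone, with no trend in the spread, and without any 1 of lines 3 and 4 or the Dcr WT libraries. The 3 called genes of the Dlk1-Dio3 list became 0 in the same settings except the missing filter. The limma count of 12 became 10 with a pseudocount of 10 and 8 with a pseudocount of 0.1. It rose to 14 with TMM or upper-quartile scaling and to 15 with a filter of at least 10 in at least 2 libraries. With median-ratio or total scaling it stayed at 12. Leaving out a library leaves 1 residual degree of freedom, and the log2 difference of Meg3 then ran from -7.33 to -6.84. Whole-read tests without each library were added after seeing the data. Without line 3, line 4, and Dcr WT replicates 1 and 2 in turn, edgeR called 15, 15, 29 and 29 features lower and 3, 9, 32 and 25 higher, and DESeq2 called 19, 16, 33 and 31 lower and 11, 9, 21 and 19 higher. Among the other lists, edgeR then called 2, 4, 3 and 2 genes higher and DESeq2 5, 4, 1 and 1. At 2-fold, 23 features were above and 37 below both other lines. Without line 3 or line 4, the count more than 4-fold above the remaining line was 15 and 9, and the range of the chromosome medians was 0.0566 and 0.0472, against 0.0369. Scaling to total reads moved the median difference over features to -0.0441, against 0.0746. Of 1416 values of single genes under these settings, 84 lost a call, 94 gained one and 0 changed direction. The depth limits the features with 0 to 3 reads in line 1, whose fold is known only within wide counting limits.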
